A study of Harpegnathos saltator with 12 samples.

Results

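Antennal RNA of adult Harpegnathos saltator, a ponerine ant, was compared between ants homozygous for a mutation in orco and wild-type ants. The comparison took every library that the labels give as homozygote or wt, which is 9 of the 12 libraries of the series, 7 homozygous and 2 wild-type. The remaining 3 libraries came from orco heterozygotes. They entered the fit to help estimate the spread, and their values are set beside those of the other genotypes where a gene is described. All libraries were made from polyadenylated RNA of whole antennae, and nothing apart from the orco genotype and the sequencing batch is labelled as differing between them. Batch 1 held wild-type replicate 2, homozygote replicate 1 and heterozygote replicate 1, and batch 2 held wild-type replicate 1, homozygote replicates 2 to 7 and heterozygote replicates 2 and 3.

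The groups are limited as models in several ways. Neither age nor the number of ants pooled in a library is labelled, and nothing says whether libraries of a genotype came from separate colonies, so the p-values measure only the spread between these libraries. The study's methods state for its stained and single-nucleus animals that the mutants were offspring of heterozygous females and that wild-type ants came from other colonies. They do not state the origin of these adult bulk samples. Colony, age and genotype can therefore not be told apart here.

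In insects, each olfactory receptor neuron expresses a tuning odorant receptor (Or) that forms a ligand-gated channel together with the shared co-receptor Orco. The receptors are placed in a sensory cilium, built by intraflagellar transport, that projects into a cuticular sensillum filled with lymph rich in odorant-binding proteins. Other antennal neurons use ionotropic receptors (Ir) or gustatory receptors (Gr), and around the neurons lie support cells, glia, epidermis that secretes cuticle, and haemolymph. Ants carry a greatly expanded Or family, and ants without orco are known to have fewer olfactory neurons and smaller antennal lobes.

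Gene-assigned counts were 14170829 and 4111828 in wild-type replicates 1 and 2 and ran from 5651682 to 23238969 in the homozygotes. Levels are given as CPM, the usual depth-scaled read count, here on TMM-scaled library sizes, and are not corrected for gene length, so they are compared between libraries and not between genes. Differences are log2 fold changes of homozygote over wild type with a standard error (SE), adjusted for sequencing batch, and a gene is said to have risen or fallen only where its Benjamini-Hochberg adjusted p-value (adjusted p) from edgeR's quasi-likelihood test was under 0.05. CPM is relative, and in bulk RNA fewer cells of a type and less RNA per cell cannot be told apart. The wild-type libraries were less alike (r = 0.876 across genes) than any pair of homozygotes (0.935 to 0.987). Of 6534 genes at 20 CPM or more in the wild type, 32.2% differed over 2-fold between these 2 libraries, against 0.352% to 8.56% for pairs of homozygous libraries. They also came from different batches. The adjustment for batch draws on all 12 libraries. A batch effect found only in the wild type cannot be told apart from a difference between these 2 libraries. Homozygote replicate 1, the only homozygote of batch 1, stood apart from the other homozygotes as well, and its 10 most abundant genes took 27.4% of its counts. Counts of calls are therefore also given without wild-type replicate 1, with the remaining wild-type library assumed to vary like the other groups, and without homozygote replicate 1 where that changes them.

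The targeted transcript separated the genotypes. HsOrco stood at 2278 and 2769 CPM in the wild-type libraries, and at a lowest value of 13.6, a median of 24.4 and a highest of 157 CPM in the homozygotes. All 7 homozygous libraries lay below both wild-type libraries, and the highest of them, replicate 5, stood far above the next at 45.0 CPM. The log2 fold change was -5.77 (SE 0.75, adjusted p 0.000123), a 54.7-fold difference. The batch 1 pair alone gave a log2 ratio of -6.41 and batch 2 alone a log2 difference of -5.60. Without homozygote replicate 5 the value was -6.47. Heterozygous libraries stood between 1670 and 2553 CPM.

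**Figure D1:**
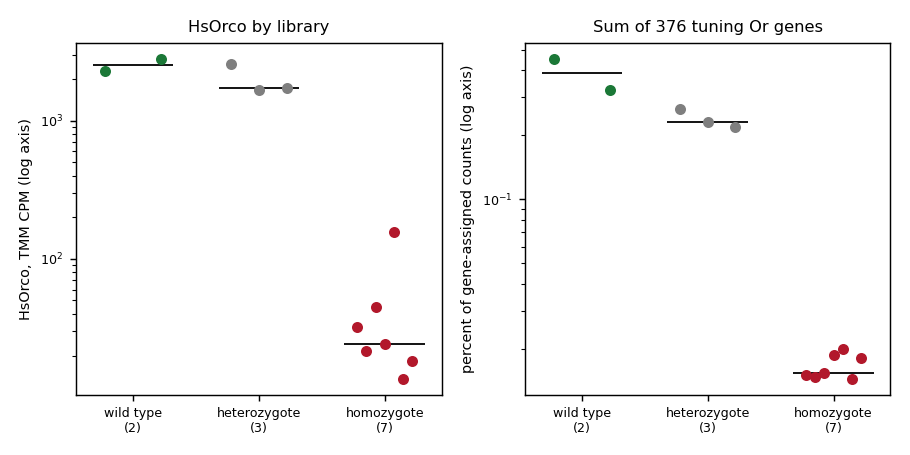
HsOrco level (left, TMM-scaled CPM, log axis) and the percent of gene-assigned counts in the 376 tuning Or genes (right, log axis) in every library; points are libraries, lines are group medians. The homozygotes lie at 13.6 to 157 CPM for HsOrco and at 0.0144% to 0.0200% for the tuning Or genes, below every wild-type and heterozygous library.

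The tuning Or family was nearly absent from the homozygous antennae. The summed counts of its 376 genes made up 0.450% and 0.324% of the gene-assigned total in wild-type replicates 1 and 2, and 0.0144%, 0.0154% and 0.0200% in the lowest, median and highest homozygous library. The difference was -4.54 on the log2 scale, or 23.2-fold (two-sided exact permutation test over 2 and 7 libraries, p = 0.0278, the smallest that 36 arrangements allow). Heterozygotes held between 0.218% and 0.265%. With batch 2 alone the difference was -4.75, where 1 wild-type library allows no p-value under 0.143. In the wild-type libraries 361 and 363 of the 376 genes reached 1 CPM, and in the homozygotes between 24 and 44 did. At 5 CPM the numbers were 286 and 223 in the wild type and 4 to 8 in the homozygotes.

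Gene by gene, 346 tuning Or genes had a mean of at least 10 counts over the 12 libraries and were tested. Of these 333 fell, 0 rose and 13 did not pass, against a background of 25.8% of all 10740 genes tested falling and 19.1% rising. At an unadjusted p under 0.05, 1 tuning Or was higher in edgeR, and DESeq2 called 1 higher. In 339 of the 346 every homozygous library lay below both wild-type libraries, which held for 17.4% of all genes. The median log2 fold change was -6.09, beside -0.06 over all genes tested. In 166 of the 376 genes no homozygous library had more than 3 counts, so a fitted value is no bound there. Among the 113 of these with at least 5 CPM in the wild type, the level was at least 18.5-fold to at least 229-fold lower (median bound 31.9-fold, with 3 counts per homozygous library as the floor), and with such genes at their bound the family median was -4.88. Without wild-type replicate 1 the number that fell was 298 and the median -5.42.

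Receptors from 1 CPM upward in the wild type fell in each range of level. The 2 tested below 1 CPM did not pass, with values of -2.18 and 1.22. Among the 70 tested receptors with a wild-type mean from 1 to 5 CPM, 66 fell and the median log2 fold change was -5.17. From 5 to 20 CPM it was 231 of 237 with a median of -6.28, and from 20 to 50 CPM 35 of 36 with a median of -7.54. The median homozygous level was 0.0828 CPM in each of the last 2 bins, under the count floor, which averaged 0.276 CPM over the homozygous libraries. The level that remained was therefore not resolved. Under the floor, a higher wild-type level by itself gives a larger fitted change. The bins therefore cannot show whether more abundant receptors fell further. Reads shared between near-identical receptor copies were not counted by the authors' aligner, so single members of recent duplications are uncertain.

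The 5 tuning receptors with the highest wild-type CPM were HsOr205, HsOr30, HsOr228, HsOr238 and HsOr208. HsOr205 had 86.5 and 39.8 CPM in the wild-type libraries, and 0, 0 and 0.143 CPM as the lowest, median and highest homozygous values. With at most 3 counts in any homozygous library it was at least 229-fold lower. HsOr228, at 66.9 and 27.6 CPM in the wild type and at most 0.436 CPM in the homozygotes, was at least 171-fold lower. None of these libraries overlapped between the genotypes. HsOr238 stood at 44.1 and 37.8 CPM in the wild type and at 0.134, 0.257 and 0.667 CPM in the homozygotes (log2 fold change -6.87, SE 0.33, adjusted p 2.28e-07). HsOr30 fell from 70.8 and 24.6 CPM to at most 0.571 CPM, with a log2 difference of -8.25 (SE 0.52). HsOr208 fell from 55.6 and 26.1 CPM to at most 0.571 CPM, with a log2 difference of -8.44 (SE 0.68), and its homozygous libraries other than replicate 5 were at 0.

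A few receptors stood near their wild-type level in the homozygotes. Those named here were taken as the 5 least lowered of the receptors at 5 CPM or more in the wild type. HsOr370 stood at 19.1 and 18.3 CPM in the wild type and at 18.3, 30.4 and 35.3 CPM in the homozygotes. These ranges overlapped, and the log2 fold change of 0.47 (SE 0.18, adjusted p 0.0545) did not pass. It passed without wild-type replicate 2 (0.65, adjusted p 0.0216) and without homozygote replicate 1 (0.54, adjusted p 0.0276). HsOr61 had 4.87 and 7.83 CPM against 3.07, 5.30 and 8.40 CPM (log2 fold change -0.11, SE 0.39, adjusted p 0.842). HsOr202 had 16.9 and 12.0 CPM against 3.97, 9.20 and 13.2 CPM (-0.72, SE 0.44, adjusted p 0.206). Neither separated the genotypes. HsOr161 did separate them, with 16.5 and 26.7 CPM above the homozygous range of 7.37 to 15.7 CPM, but its log2 fold change of -0.57 (SE 0.24, adjusted p 0.0759) did not pass. HsOr247 fell from 14.8 and 14.6 CPM to a median of 9.05 CPM (range 6.10 to 11.4 CPM), with a log2 difference of -0.83 (SE 0.20, adjusted p 0.00691). Without wild-type replicate 1 it was -0.98 with an adjusted p of 0.0622.

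**Figure D2:**
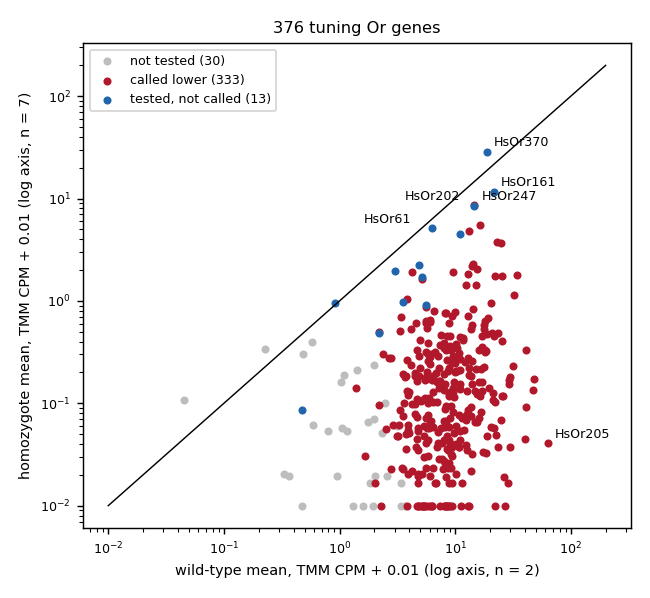
Mean level of each of the 376 tuning Or genes in the wild type (x axis, n = 2) and in the homozygotes (y axis, n = 7), in TMM-scaled CPM plus 0.01 on log axes; the line marks equal levels. The 333 genes that fell (red) lie under the line, HsOr247 close to it, and the 13 that did not pass (blue) include HsOr370, HsOr161, HsOr202 and HsOr61.

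More ionotropic receptor genes rose than fell, but the family's summed level overlapped between the genotypes. Of 23 Ir genes 19 were tested. Of these 10 rose (52.6%, against 19.1% of all genes) and 2 fell (10.5%, against 25.8%), with a median log2 fold change of 1.05. The sum over the family was 232 and 377 CPM in the wild type and 234 to 481 CPM in the homozygotes. HsIr25a.1, a copy of the broadly used co-receptor Ir25a, stood at 1.84 and 2.61 CPM in the wild type and at 6.39, 11.6 and 16.3 CPM in the homozygotes (log2 fold change 2.55, SE 0.32, adjusted p 0.000111). HsIr25a.2 stood at 10.8 and 15.4 CPM against 21.9, 36.3 and 54.4 CPM (1.73, SE 0.24, adjusted p 0.000223). In both copies every homozygous library lay above both wild-type libraries, and the heterozygotes were at 6.28 to 10.1 CPM and 18.9 to 37.1 CPM. HsIr93a, which in flies serves thermo- and hygrosensation, rose from 9.81 and 14.8 CPM to a median of 31.1 CPM (1.41, SE 0.28, adjusted p 0.00207), without wild-type replicate 1 1.27 with an adjusted p of 0.0662. The co-receptors of acid and amine sensing in flies did not pass. HsIr8a had 73.4 and 97.8 CPM against a range of 54.2 to 115 CPM (-0.07, SE 0.24, adjusted p 0.837), and HsIr76b had 7.62 and 7.61 CPM against 8.11 to 12.1 CPM (0.48, SE 0.20, adjusted p 0.0695).

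The Ir genes that fell were HsIr308 and HsIr309. HsIr308 had 10.9 and 64.3 CPM in the respective wild-type libraries and 3.41, 4.54 and 7.62 CPM in the homozygotes, a log2 difference of -1.94 (SE 0.30, adjusted p 0.000472). HsIr309 had 12.8 and 55.2 CPM against 4.88, 6.56 and 12.4 CPM, a log2 difference of -1.42 (SE 0.24, adjusted p 0.000701). For both the wild-type libraries differed more from each other than either group's other spread, yet no homozygous library reached the lower wild-type value. The receptors HsIr75f.1, HsIr75f.3 and HsIr319 rose by 1.25, 1.28 and 1.16 on the log2 scale, and the low-count HsIr312 and HsIr310 by 1.65 and 1.41. Without wild-type replicate 1, 4 of the 12 Ir calls remained, both Ir25a copies higher and HsIr308 and HsIr309 lower, with a median over the 19 of 0.90. HsIr312 also lost its call without wild-type replicate 2 (1.46, adjusted p 0.0977).

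Gustatory receptor genes were few and low. Of 17 Gr genes 11 were tested. Of these 2 rose (18.2%, against 19.1% of all genes) and 1 fell (9.09%, against 25.8%), with a median of 0.57. HsGr1 stood at 2.33 and 4.13 CPM in the wild type and at 10.1, 25.6 and 78.4 CPM in the homozygotes (log2 fold change 3.93, SE 0.84, adjusted p 0.00319), with no overlap and with heterozygotes at 13.9 to 63.2 CPM. HsGr12 stood at 11.6 and 7.61 CPM against 2.65, 4.84 and 5.42 CPM (-1.14, SE 0.30, adjusted p 0.00980), and without wild-type replicate 1 the value was -0.45 (adjusted p 0.543). HsGr4 was near 1 CPM in the wild type (0.777 and 1.09 CPM) and at a median of 1.85 CPM in the homozygotes (1.36, SE 0.43, adjusted p 0.0233), and lost its call without either wild-type library (1.52 and 1.28) or without homozygote replicate 1 (1.07).

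Outside the receptor families the difference reached a large part of the transcriptome. Of 10363 such genes tested, 2036 rose (19.6%) and 2431 fell (23.5%), together 43.1%. Changes over 4-fold were seen in 616 of the genes that rose and in 295 of those that fell. Over all 10740 genes 4816 (44.8%) differed, and 32.4% had no overlap between the wild-type and homozygous libraries. Scaling by library totals instead of TMM moved the median of all genes by -0.16 and gave 1320 genes higher and 3254 lower, so that the share of calls that were higher went from 42.5% to 28.9%. Without wild-type replicate 1, 833 genes rose and 1175 fell, and 1778 of these 2008 calls were among the 4816. Heterozygotes differed from the same 2 wild-type libraries in 1917 genes (17.8%, with 9.71% higher and 8.14% lower), and because these libraries are shared the heterozygous values are given side by side only. The named functional lists described next hold 640 genes, of which 561 were tested, 132 rose and 152 fell. Their counts are to be read beside the 19.1% of all genes tested that rose and the 25.8% that fell. Genes named for the size of their change, or of their gain or loss of CPM, were drawn from called genes without overlap. Lack of overlap in those genes was therefore fixed by the choice.

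**Figure D3:**
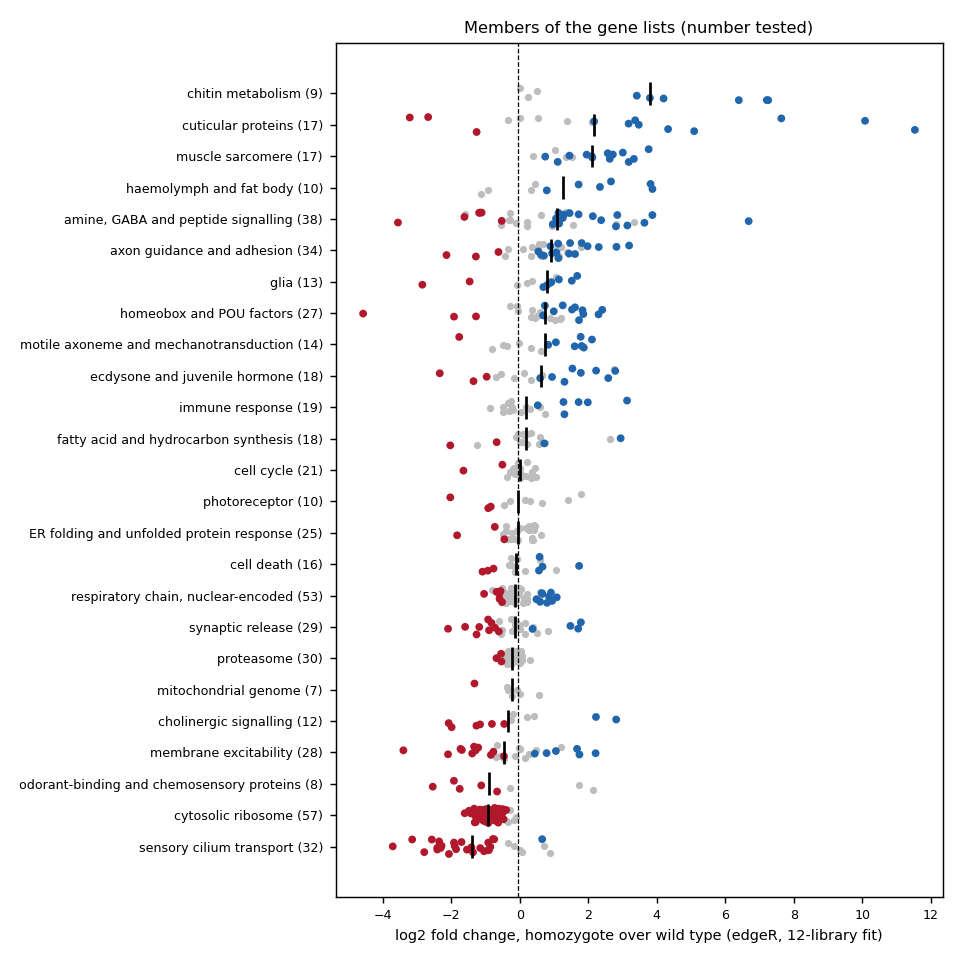
Log2 fold change of homozygote over wild type for the tested members of each list (number in brackets); blue points rose, red points fell, grey points did not pass, black bars are list medians and the dashed line is the median of all genes tested (-0.06). Sensory cilium transport lies lowest with a median of -1.39, and chitin metabolism highest with 3.80.

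Genes that build and supply the sensory cilium fell together. Of 32 tested genes of intraflagellar transport, the BBSome (the coat that moves membrane cargo in cilia) and the transition zone, 25 fell and 1 rose, with a median of -1.39. The summed level of the list was 2098 and 2121 CPM in the wild-type libraries and 742 to 913 CPM in the homozygotes, with heterozygotes at 2035 to 2395 CPM. BBS5, a BBSome subunit, stood at 90.7 and 112 CPM in the wild type and at 5.80, 7.01 and 8.61 CPM in the homozygotes (log2 fold change -3.71, SE 0.19, adjusted p 2.66e-07). BBS5 was drawn from called genes without overlap, so the separation of homozygotes and wild type was fixed by that choice. The heterozygotes, at 28.0 to 55.3 CPM, lay between them. BBS4 fell from 112 and 77.6 CPM to a median of 17.6 CPM (-2.41, SE 0.16, adjusted p 8.35e-07) with heterozygotes at 70.7 to 88.7 CPM, and BBS8 by 2.28 on the log2 scale. Arl6, the small GTPase that recruits the BBSome to membranes, fell by 1.54, and without wild-type replicate 1 it was -0.79 and not called.

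The transport trains themselves followed. Oseg5, the fly name of the IFT80 subunit, stood at 131 and 95.2 CPM in the wild type against 19.6, 23.5 and 30.6 CPM in the homozygotes (log2 fold change -2.31, SE 0.13, adjusted p 3.65e-07), with heterozygotes at 97.5 to 110 CPM and no overlap. Cluap1 fell from 103.6 and 48.5 CPM to a median of 8.48 CPM (-3.14, SE 0.25, adjusted p 3.30e-06) and Ttc26 from 86.7 and 60.7 CPM to 12.3 CPM (-2.57, SE 0.17, adjusted p 9.54e-07). Other trains and motors fell less, among them Oseg2 by 1.70, the retrograde dynein heavy chain btv by 1.41, rempA by 1.15, the kinesin-II motor Klp68D by 0.93 and nompB by 0.75 on the log2 scale. The kinesin-II partners Klp64D (-0.34) and Kap3 (-0.17) did not pass. Of the genes at the ciliary base, Mks1 (-2.36), dila (-2.41) and Cby (-2.79) fell, whereas Cep290, a transition zone protein, rose from 19.9 and 34.8 CPM to a median of 38.5 CPM (0.65, SE 0.17, adjusted p 0.00932) with overlapping libraries, and lost its call without wild-type replicate 1 (0.29). btv lost its call without wild-type replicate 2 (-0.54, against -2.35 without replicate 1). Of the list, 22 genes still fell without wild-type replicate 1 (median -1.07). In the heterozygotes 4 of the 32 were higher and 2 lower than in the wild type, with a median of -0.02.

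Most listed genes of the motile axoneme and of mechanotransduction, which mark another kind of ciliated sensory neuron, did not share that fall. Of 14 tested 7 rose and 1 fell (median 0.73). The list summed to 253 and 342 CPM in the wild type and 209 to 348 CPM in the homozygotes. Spag1, an assembly factor of axonemal dyneins outside the list, fell and is described further below. The TRP channel subunit iav rose from 4.52 and 12.6 CPM to 15.4, 19.6 and 31.6 CPM (1.81, SE 0.29, adjusted p 0.000581), and the axonemal dynein heavy chain Dhc98D from 1.77 and 5.0 CPM to a median of 8.03 CPM (2.11, SE 0.36, adjusted p 0.000806). The radial spoke gene Rsph3 went the other way, from 164 and 160 CPM to 31.0, 39.6 and 63.6 CPM (-1.77, SE 0.22, adjusted p 9.68e-05). With wild-type replicate 1 left out, 2 rose and 1 fell, and the median was 0.78. RefSeq gives the symbol nompC, a mechanosensory channel in flies, to 2 loci, of which LOC105188586 rose (1.60, SE 0.40, adjusted p 0.00782; without wild-type replicate 1 0.82, not called) and LOC105188598 did not pass (-0.48, SE 0.20, adjusted p 0.0733).

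Channels that set the excitability of neurons changed in both directions, with more falling. Of 28 tested 11 fell (39.3%, against 25.8% of all genes) and 6 rose (21.4%, against 19.1%), with a median of -0.46. Shal, the A-type potassium channel of the Kv4 class, stood at 453 and 347 CPM in the wild type and at 24.6, 29.9 and 69.0 CPM in the homozygotes (log2 fold change -3.40, SE 0.23, adjusted p 1.07e-06). Heterozygotes held 213 to 390 CPM. Shal was drawn from called genes without overlap, so its separation was fixed by that choice. When wild-type replicate 1 was dropped, the value was -2.53. Teh4, in flies an auxiliary subunit of the voltage-gated sodium channel, fell from 127 and 161 CPM to 19.5, 28.5 and 42.0 CPM (-2.10, SE 0.25, adjusted p 6.89e-05). The hyperpolarization-activated channel Ih fell by 1.69, the erg-type potassium channel sei by 1.29 and unc79, an accessory of the sodium leak channel, by 1.39 on the log2 scale. Slob, whose fly protein binds the calcium-activated potassium channel slo, was chosen with the largest changes of all genes, and stood at 349 and 352 CPM against 14.6, 23.2 and 27.6 CPM (-3.85, SE 0.19, adjusted p 2.28e-07) with heterozygotes at 119 to 165 CPM.

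Other members of the list rose. The T-type calcium channel subunit Ca-alpha1T rose from 57.2 and 157 CPM to 199, 272 and 310 CPM (1.74, SE 0.27, adjusted p 0.000394), and the potassium channel Elk from 3.74 and 9.13 CPM to a median of 11.8 CPM (1.67, SE 0.26, adjusted p 0.000500), each without overlap. Wild-type replicates 1 and 2 differed widely in the sum of the excitability list (2929 and 7575 CPM, homozygotes 2075 to 4099 CPM). In the fit lacking wild-type replicate 1, 12 of the list fell and 3 rose (median -0.69), and without wild-type replicate 2, 11 fell and 9 rose (median 0.14). The direction of the list's median therefore turned with the wild-type library, while that of Shal and Teh4 did not.

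Genes of the release machinery of nerve terminals were called about as often as genes at large. Of 29 synaptic genes tested 9 fell (31.0%, against 25.8% of all genes) and 4 rose (13.8%, against 19.1%), with a median of -0.15, and of 12 cholinergic genes 6 fell and 2 rose, with a median of -0.35. nSyb, the neuronal vesicle SNARE, stood at 706 and 792 CPM in the wild type and at 182, 216 and 320 CPM in the homozygotes (log2 fold change -1.60, SE 0.15, adjusted p 1.11e-05). Heterozygotes stood at 843 to 983 CPM. The vesicle priming factor unc-13 fell from 339 and 938 CPM to 64.1, 96.8 and 207 CPM (-2.10, SE 0.24, adjusted p 5.32e-05) and Syt4 from 425 and 543 CPM to a median of 175 CPM (-1.26, SE 0.16, adjusted p 9.25e-05). The target SNAREs Snap25 and Syx1A fell by 0.72 and 0.90 and complexin (cpx) by 0.93 on the log2 scale. ChAT, which makes the transmitter acetylcholine used by insect sensory neurons, fell from 321 and 408 CPM to 112, 137 and 163 CPM (-1.27, SE 0.15, adjusted p 7.31e-05), without overlap and with heterozygotes at 383 to 614 CPM. The vesicular transporter VAChT, for the same transmitter, fell by 0.46. On leaving out wild-type replicate 1, the values of Snap25 (-0.46), Syx1A (-0.68) and cpx (-0.63) were not called, and VAChT lost its call without wild-type replicate 2 (-0.26) and without heterozygote replicate 1 (-0.43).

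Other neuronal genes did not pass. The calcium sensor of release Syt1 had 212 and 362 CPM against 151, 183 and 326 CPM (-0.26, SE 0.15, adjusted p 0.193), and the RNA-binding protein fne, a pan-neuronal marker, had 389 and 471 CPM against 206, 258 and 569 CPM (-0.34, SE 0.22, adjusted p 0.216). In both, the highest homozygous library was replicate 1, and without it fne passed at -0.65 (adjusted p 0.0240). Across the synaptic, cholinergic and excitability lists replicate 1 was the highest of the 7 homozygotes in 60 of 69 tested genes. It was the only homozygote of batch 1, and in every genotype the batch 1 library had the highest sum of each list. For the synaptic list the batch 1 and batch 2 sums were 9894 and 5216 CPM in the wild type. In the heterozygotes they were 11769 against 7545 and 9908 CPM, and in the homozygotes 5876 against 3109 to 3877 CPM. The cause was not tested. Without homozygote replicate 1, 10 synaptic genes fell and 2 rose (median -0.44), and 7 cholinergic genes fell and 2 rose (median -0.68). Leaving out wild-type replicate 1 instead, 8 synaptic genes fell and 2 rose (median -0.46), and 4 cholinergic genes fell and 1 rose (median -0.40). The cholinergic genes that rose were the receptors mAChR-B, from 0.706 and 6.96 CPM to a median of 15.6 CPM (2.82, SE 0.58, adjusted p 0.00259), and nAChRalpha1 (2.22, SE 0.50), whose libraries overlapped. With wild-type replicate 1 left out, these values were 1.55 and 1.32, the latter not called, and without wild-type replicate 2 mAChR-B was at 4.37.

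Among receptors for modulators the dopamine and ecdysteroid receptor DopEcR fell furthest. It stood at 820 and 781 CPM in the wild type and at 38.6, 46.0 and 117 CPM in the homozygotes (log2 fold change -3.56, SE 0.34, adjusted p 1.18e-05), and heterozygotes held 543 to 1206 CPM. GABA-B-R1, a receptor through which GABA damps olfactory neuron terminals in flies, fell from 76.0 and 103 CPM to 17.3, 20.6 and 46.8 CPM (-1.62, SE 0.19, adjusted p 6.89e-05), with heterozygotes at 109 to 183 CPM. Neither overlapped. Of the 38 tested members of the list 16 rose, 6 fell and 16 did not pass, with a median of 1.09. The neuropeptide receptor FMRFaR rose from 8.97 and 12.2 CPM to a median of 36.9 CPM (2.13, SE 0.35, adjusted p 0.000614), and Pdfr, Oct-TyrR and Dop2R, receptors for a clock neuropeptide, for octopamine and tyramine and for dopamine, rose by 3.64, 2.85 and 2.38 from levels under 8 CPM (Pdfr 0.494 and 1.52 CPM, Oct-TyrR 0.565 and 7.61 CPM, Dop2R 0.494 and 5.65 CPM). When wild-type replicate 1 was dropped, 8 rose and 4 fell, and the median was 0.59. Pdfr was then not called (3.13), and Oct-TyrR and Dop2R stood at 1.62 and 1.38, against 4.52 and 3.65 without wild-type replicate 2.

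ple, the tyrosine hydroxylase that starts both dopamine synthesis and the tanning of cuticle, rose from 394 and 135 CPM to 2720, 4817 and 7252 CPM (3.87, SE 0.40, adjusted p 2.25e-05). Heterozygotes stood at 2103 to 5597 CPM, overlapping the homozygous range and above both wild-type libraries. For the homozygotes, separation from the wild type was fixed by drawing ple from called genes without overlap. Gad1, the enzyme of GABA synthesis, was called higher (6.68, SE 1.18, adjusted p 0.00104) through homozygote replicate 1. That library had 88.2 CPM, the median homozygote 0.0643 CPM and the wild-type libraries 0 and 0.652 CPM. Without it the value was 0.55 with an adjusted p of 0.790, and without wild-type replicate 2 it was 3.03 with an adjusted p of 0.438.

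Transcription factors of the homeodomain and POU classes moved in both directions. The homeobox gene unpg stood at 21.0 and 49.3 CPM in the wild type and at 0.193, 0.593 and 2.52 CPM in the homozygotes (log2 fold change -4.58, SE 0.51, adjusted p 3.96e-05). Heterozygotes held 29.3 to 62.0 CPM. unpg was drawn from called genes without overlap, so the separation of homozygotes and wild type was fixed by that choice. onecut and acj6 (a POU factor that in flies directs Or gene choice) fell as well, but rested on wild-type replicate 2. onecut had 28.0 and 177 CPM against 14.0, 19.7 and 47.3 CPM (-1.28, SE 0.34, adjusted p 0.0108; without wild-type replicate 2 -0.49 and without replicate 1 -2.12), and acj6 had 3.67 and 60.7 CPM against 1.74, 3.67 and 5.94 CPM (-1.92, SE 0.70, adjusted p 0.0437; without wild-type replicate 2 -0.07 and without replicate 1 -3.49). The call of acj6 was lost on leaving out any library other than wild-type replicate 1 or homozygote replicate 5, with -1.30 without homozygote replicate 1 and -1.56 without heterozygote replicate 1. Heterozygotes held 110 to 217 CPM of onecut and 36.7 to 78.7 CPM of acj6.

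Of the 27 homeobox and POU genes tested, 11 rose (40.7%, against 19.1% of all genes) and 3 fell (11.1%, against 25.8%), with a median of 0.73. The LIM factors tup and Lim3 rose from 15.2 and 22.4 CPM to a median of 37.5 CPM (1.25, SE 0.15, adjusted p 7.38e-05) and from 0.706 and 4.57 CPM to 6.79 CPM (2.41, SE 0.39, adjusted p 0.000568). The POU gene vvl rose from 126 and 144 CPM to a median of 231 CPM (0.73, SE 0.15, adjusted p 0.00252). None of the 3 overlapped between the genotypes. In the fit lacking wild-type replicate 1, 4 rose and 3 fell, and the median was 0.29, with Lim3 at 1.58 and vvl at 0.60, the latter not called.

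**Figure D4:**
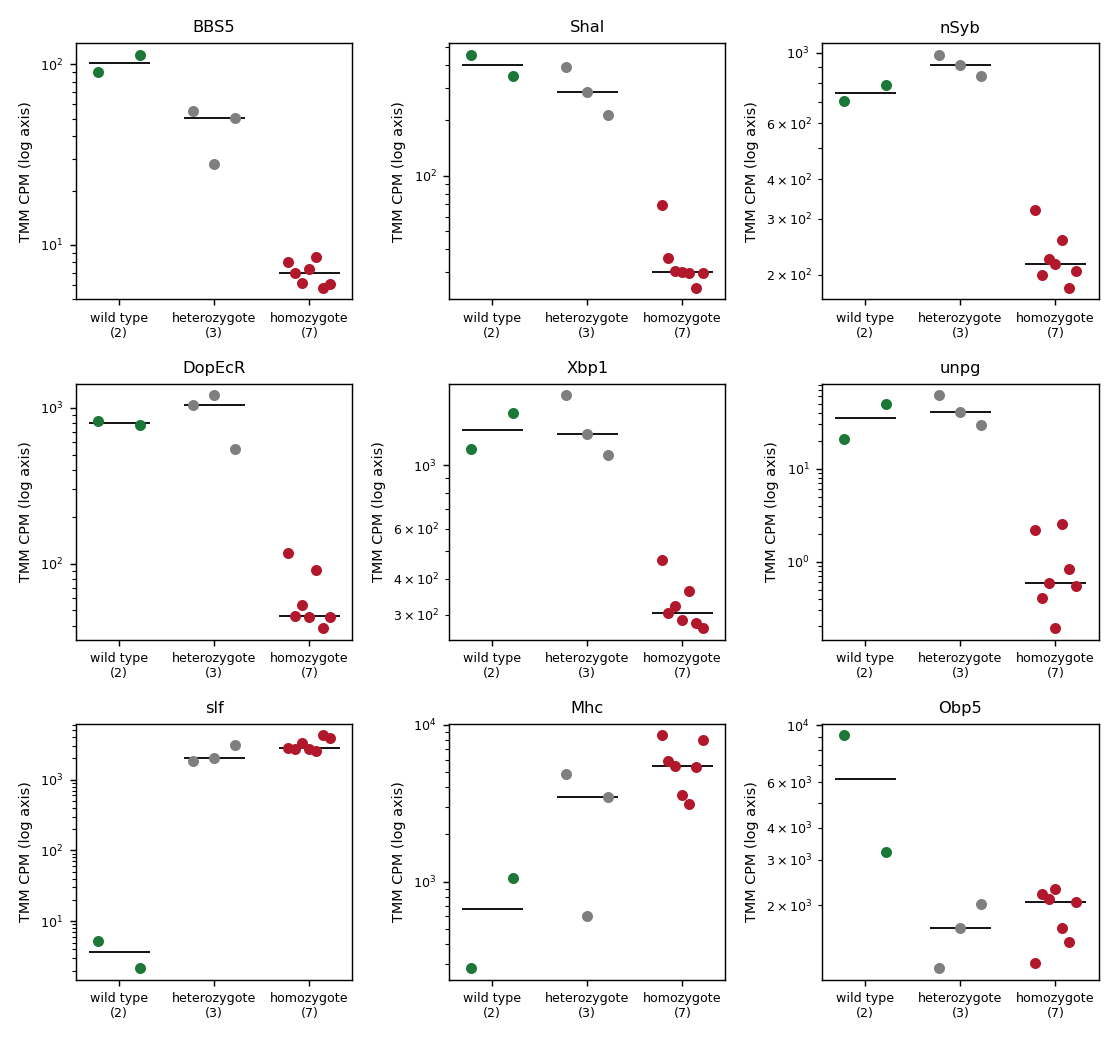
Level of 9 named genes in every library (TMM-scaled CPM, log axes), by genotype; points are libraries and lines are group medians. BBS5, Shal, nSyb, DopEcR, Xbp1 and unpg are lower in the 7 homozygotes than in the wild-type and heterozygous libraries, whereas for slf and Obp5 the heterozygotes lie near the homozygotes; Mhc varies widely among the heterozygotes (603 to 4819 CPM).

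Other genes chosen for the size of their fall were Fer1, bru3, s-cup, Hydr2, meng, Spag1, hgo, HnRNP-K, Eaat2 and Xbp1. Fer1, which encodes a bHLH factor in flies, stood at 187 and 123 CPM in the wild type and at 6.29, 8.16 and 15.8 CPM in the homozygotes (log2 fold change -4.10, SE 0.29, adjusted p 1.22e-06), with heterozygotes at 106 to 149 CPM. Eaat2, a transporter of acidic amino acids, stood at 1260 and 1282 CPM against 83.7, 108 and 473 CPM (-2.85, SE 0.36, adjusted p 0.000113), with heterozygotes at 883 to 1858 CPM. On leaving out wild-type replicate 1, it was -1.85, and its highest homozygote was replicate 1. HnRNP-K, an RNA-binding protein, stood at 1943 and 2871 CPM against 369, 466 and 686 CPM (-1.98, SE 0.21, adjusted p 2.26e-05). bru3 (-3.33, SE 0.32), s-cup (-3.27, SE 0.21) and Hydr2 (-3.23, SE 0.17) also fell. All genes named in this paragraph were drawn from called genes without overlap, so their separation was fixed by that choice. meng had 218 and 37.4 CPM in the wild type against a median of 11.5 CPM (-3.32, SE 0.50), and without wild-type replicate 1 it was -0.96 with an adjusted p of 0.215.

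For 2 of the steepest falls the heterozygotes were as low as the homozygotes. hgo, homogentisate dioxygenase of tyrosine breakdown, stood at 302 and 219 CPM in the wild type, at 1.49, 3.27 and 11.4 CPM in the homozygotes and at 0.636 to 28.5 CPM in the heterozygotes. Its log2 fold change was -6.10 in the homozygotes (SE 0.94, adjusted p 0.000427) and -5.16 in the heterozygotes (adjusted p 0.0168). Spag1, an assembly factor of axonemal dyneins, stood at 26.7 and 34.3 CPM in the wild type, at 2.57 to 4.005 CPM in the homozygotes and at 1.23 to 2.86 CPM in the heterozygotes, with log2 fold changes of -3.26 (SE 0.25, adjusted p 2.02e-06) and -3.88 (adjusted p 5.31e-05).

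Few genes of the unfolded protein response passed the test. Of 25 genes of folding and stress signalling in the endoplasmic reticulum 3 fell and 0 rose (1 higher at an unadjusted p under 0.05 in edgeR, 2 called higher by DESeq2), and the median was -0.06. Xbp1 stood at 1137 and 1524 CPM in the wild type and at 269, 304 and 465 CPM in the homozygotes (log2 fold change -1.83, SE 0.14, adjusted p 2.67e-06). Xbp1 was drawn from called genes without overlap, so its separation was fixed by that choice. Heterozygotes held 1084 to 1759 CPM. The chaperone Hsc70-3 had 679 and 730 CPM against 551, 646 and 818 CPM (-0.07, SE 0.28, adjusted p 0.846), and the transcription factor crc, the ATF4 homologue, had 1015 and 594 CPM against 852, 1102 and 1222 CPM (0.27, SE 0.16, adjusted p 0.194). The other falls, sip3 (-0.73) and PPP1R15 (-0.45), lost their calls without wild-type replicate 1 (-0.35 and -0.13). Cell death genes were split, with 4 of 16 higher, 3 lower and a median of -0.10. The TNF receptor wgn rose from 6.85 and 9.9997 CPM to a median of 29.4 CPM (1.73, SE 0.25, adjusted p 0.000236) and p53 fell from 20.6 and 13.5 CPM to 10.1 CPM (-1.09, SE 0.21, adjusted p 0.00164), each without overlap and with heterozygotes at 15.9 to 21.5 CPM and 7.94 to 10.4 CPM.

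Several cuticle genes rose steeply, and their levels in the heterozygotes were near those in the homozygotes. Of 17 cuticular protein genes 9 rose and 3 fell (median 2.17), and of 9 genes of chitin metabolism 6 rose and 0 fell (median 3.80; 0 lower at an unadjusted p under 0.05 in edgeR and 0 by DESeq2). apd-3l, an apidermin-like cuticle gene, stood at 29.4 and 4.57 CPM in the wild type and at 1586, 48286 and 139162 CPM in the homozygotes (log2 fold change 11.54, SE 2.43, adjusted p 0.00298). Its homozygous libraries varied widely. That they lay above the wild type was fixed by drawing apd-3l from called genes without overlap. The heterozygotes, at 14709 to 43556 CPM, also lay above the wild type. slf, a chitin-binding cuticle gene in flies, was steady among the homozygotes, at 2559, 2819 and 4230 CPM against 5.30 and 2.17 CPM (9.55, SE 0.49, adjusted p 2.66e-07), with heterozygotes at 1813 to 3042 CPM. The cuticle proteins CPR6 and CPR28 rose from 9.04 and 12.8 CPM to a median of 163 CPM (4.33, SE 0.48, adjusted p 4.06e-05) and from 92.3 and 70.7 CPM to 789 CPM (3.18, SE 0.39, adjusted p 8.55e-05). The cuticle genes that fell, Cpr92F (-3.21), CPR3 (-2.68) and CPR1 (-1.26), were under 7 CPM in both wild-type libraries (6.52 to 6.96 CPM), and CPR3 and CPR1 lost their calls without wild-type replicate 1.

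Enzymes that lay down and trim chitin moved with them. The chitin deacetylase verm rose from 3.18 and 5.0 CPM to 193, 475 and 1005 CPM (log2 fold change 7.26, SE 0.76, adjusted p 2.44e-05), with heterozygotes at 262 to 376 CPM. The chitinase Cht7 rose from 2.40 and 3.04 CPM to 72.6, 435 and 535 CPM (7.22, SE 1.07, adjusted p 0.000323), and the deacetylase Cda5 from 1.55 and 6.96 CPM to 27.6, 223 and 439 CPM (6.40, SE 1.18, adjusted p 0.00134). These 3 genes were drawn from called genes without overlap, so their separation was fixed by that choice. The chitin synthase kkv rose by 4.20 (SE 1.07), with overlapping libraries and no call without either wild-type library (4.71 and 3.85). Of the 15 cuticle and chitin genes that rose, homozygote replicates 2 and 4 were the lowest of the 7 in 14, and replicate 1 the highest in 10. In the heterozygotes, compared with the same wild-type libraries, 6 cuticular and 5 chitin genes were higher, with medians of 2.21 and 2.77. With wild-type replicate 1 left out, 6 cuticular and 5 chitin genes rose (medians 2.597 and 4.01).

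Several of the other large rises were of the same size. Skeletor rose from 0.282 and 0.435 CPM to 17.4, 54.6 and 103.7 CPM (7.43, SE 1.02, adjusted p 0.000194), the cadherins Cad74A and Cad89D by 7.21 (SE 1.22) and 5.46 (SE 0.66), and hlk from 3.67 and 19.3 CPM to a median of 232 CPM (5.21, SE 0.89, adjusted p 0.000822). conv, in flies a gene of the tracheal matrix, rose by 7.11 (SE 1.77) and fs(1)N, an eggshell gene in flies, by 5.27 (SE 1.10), and neither was called without wild-type replicate 1 (6.63 and 4.80). Cpr97Ea was at 0.141 and 0 CPM in the wild type and at 1.07, 34.9 and 512 CPM in the homozygotes (10.08, SE 3.03, adjusted p 0.0194), a value with an SE too large to hold when either wild-type library was left out (14.99 and 8.66, not called). bnb, chosen for its gain in CPM, had 2400 and 1040 CPM against 3032 to 3961 CPM (0.96, SE 0.36, adjusted p 0.0482), and was not called when any wild-type or homozygous library was left out, with 1.49 and 0.63 without wild-type replicates 1 and 2 and 0.55 without homozygote replicate 1.

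Many muscle genes rose. Of 17 tested genes of the sarcomere 13 rose, 4 did not pass and 0 fell, with a median of 2.10 (0 lower at an unadjusted p under 0.05 in edgeR and 0 by DESeq2). Mhc, the myosin heavy chain, stood at 281 and 1053 CPM in the wild type and at 3111, 5467 and 8559 CPM in the homozygotes (log2 fold change 3.76, SE 0.73, adjusted p 0.00183). The calcium pump SERCA stood at 609 and 1917 CPM against 3533, 7014 and 10046 CPM (3.07, SE 0.69, adjusted p 0.00426). Both genes were drawn from called genes without overlap, so their separation was fixed by that choice. Both lost their calls without wild-type replicate 1 (3.24 and 2.599). Tropomyosin Tm1 rose from 325 and 497 CPM to a median of 1580 CPM (2.12, SE 0.28, adjusted p 0.000151) and alpha-actinin Actn from 84.9 and 234 CPM to 750 CPM (2.72, SE 0.43, adjusted p 0.000504). The summed list held 4559 and 6386 CPM in the wild type, 13119 to 26556 CPM in the homozygotes and 3505 to 16019 CPM in the heterozygotes. When wild-type replicate 1 was dropped, 9 rose (median 2.33).

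Most odorant-binding protein genes tested fell. Of 8 tested genes of these secreted carriers and the related chemosensory proteins, 5 fell and 0 rose (1 higher at an unadjusted p under 0.05 in edgeR, 2 called higher by DESeq2), with a median of -0.90. Obp1 stood at 55594 and 11734 CPM in the respective wild-type libraries and at 4760, 6363 and 7218 CPM in the homozygotes (log2 fold change -2.54, SE 0.32, adjusted p 0.000110), and without wild-type replicate 1 at -1.41. Obp5 stood at 9133 and 3220 CPM against 1187, 2050 and 2303 CPM (-1.93, SE 0.23, adjusted p 6.70e-05), and Obp6 at 4027 and 1621 CPM against 640, 1025 and 1186 CPM (-1.76, SE 0.20, adjusted p 5.01e-05). In each the homozygotes lay below the lower wild-type library, which was fixed by drawing these genes from called genes without overlap. The heterozygotes overlapped the homozygotes and also lay below that library, at 6135 to 10936 CPM for Obp1, 1138 to 2012 CPM for Obp5 and 710 to 1280 CPM for Obp6. In the fit lacking wild-type replicate 1, 3 of the 8 fell (median -0.29).

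The calls on ribosomal protein genes turned on wild-type replicate 1. Of 57 tested 51 fell and 0 rose (0 at an unadjusted p under 0.05 in edgeR and 0 by DESeq2), with a median of -0.92, and in the heterozygotes 50 were lower. Their summed level was 21537 CPM in wild-type replicate 1, 9559 CPM in wild-type replicate 2, 7756 to 10542 CPM in the homozygotes and 6075 to 9944 CPM in the heterozygotes. On leaving out wild-type replicate 1, 9 fell and the median was -0.31. Genes of the nuclear-encoded respiratory chain turned direction. Of 53 tested 9 rose and 6 fell (median -0.13), without wild-type replicate 1 15 rose and 0 fell (median 0.45), and without wild-type replicate 2 4 rose and 27 fell (median -0.44).

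**Figure D5:**
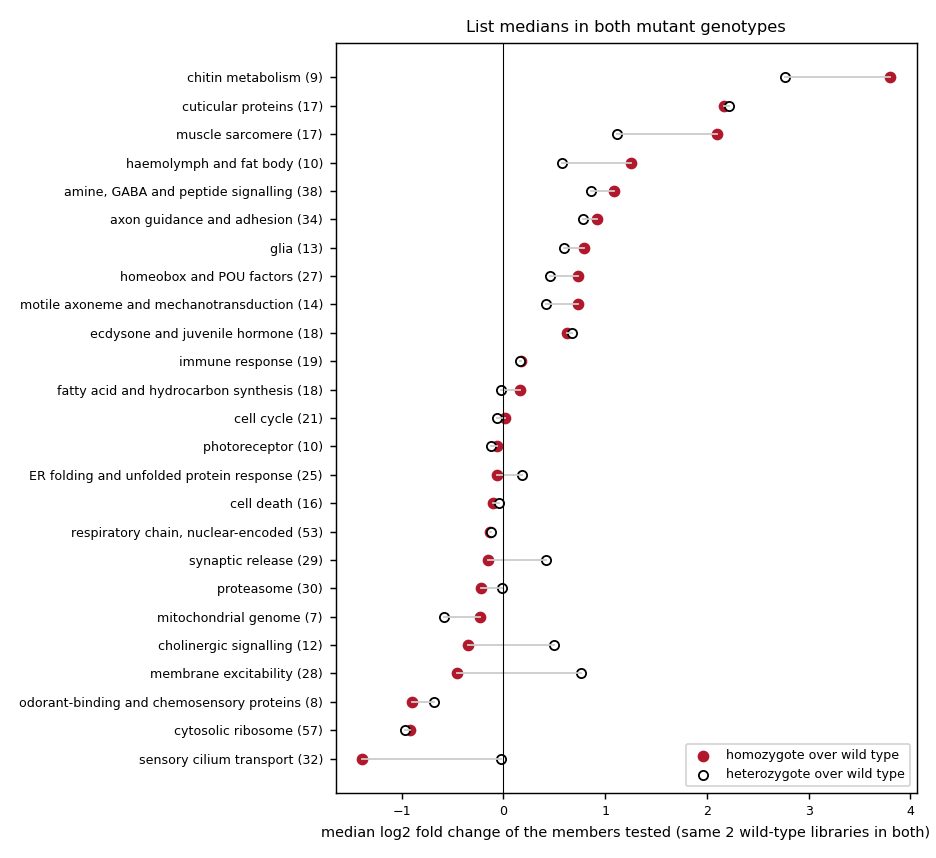
Median log2 fold change over wild type of the tested members of each list, in the homozygotes (filled) and in the heterozygotes (open), which share the same 2 wild-type libraries. The medians lie close for cuticular proteins (2.17 and 2.21) and the cytosolic ribosome (-0.92 and -0.97), and far apart for sensory cilium transport (-1.39 and -0.02) and membrane excitability (-0.46 and 0.77).

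Markers used by the study for antennal cell types showed no shared direction. Of 13 markers 3 rose and 3 fell (23.1% each, against 19.1% and 25.8% of all genes), with a median of -0.33. Rh50, an ammonium transporter that marks ammonia-sensing neurons, rose from 23.9 and 21.1 CPM to 77.2, 83.3 and 109 CPM (log2 fold change 2.02, SE 0.29, adjusted p 0.000261), with heterozygotes at 26.6 to 63.1 CPM and no overlap. The glial factor repo had 116 and 118 CPM against 134, 156 and 180 CPM, all above the wild type, but its value of 0.35 (SE 0.15, adjusted p 0.0751) did not pass. Support cell markers were split. sv had 1.91 and 23.9 CPM against 19.5, 23.4 and 50.1 CPM (2.26, SE 0.48, adjusted p 0.00339; without wild-type replicate 1 1.14 and without replicate 2 3.60), LOC105190591 fell from 195 and 159 CPM to 74.0, 94.8 and 102 CPM (-0.95, SE 0.16, adjusted p 0.000646; without wild-type replicate 1 -0.69, not called), and LOC105182650 (-0.47) and LOC105188530 (-0.33) did not pass. The epidermal factor grh had 5.30 and 62.6 CPM against 22.2 to 66.5 CPM, so its direction depended on the wild-type library (0.94 with both, -0.74 without replicate 1, 3.21 without replicate 2). The muscle marker Mhc rose and the mechanosensory marker nompC (LOC105188598) did not pass, as given with their lists. The neuronal markers nSyb and fne were present in every homozygous library, at 182 CPM or more and 206 CPM or more.

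Beyond the markers, more genes of the glial list rose than fell, but its summed level overlapped between the genotypes. The sum was 2981 and 3946 CPM in the wild type and 3319 to 4832 CPM in the homozygotes. Of 13 tested 7 rose and 2 fell (median 0.79), and the 2 that fell were Eaat2 and moody, a receptor of the fly blood-brain barrier (50.8 and 29.6 CPM against a median of 14.1 CPM, -1.47, SE 0.27). sinu, a septate junction gene, rose from 126 and 86.7 CPM to 247, 316 and 461 CPM (1.52, SE 0.23, adjusted p 0.000414) and Nrx-IV, of the same junctions, from 103 and 215 CPM to a median of 304 CPM (1.14, SE 0.23, adjusted p 0.00231). With wild-type replicate 1 left out, 2 glial genes rose and 1 fell, and Nrx-IV (0.61) and moody (-0.82) lost their calls. Axon guidance and adhesion genes likewise rose more often than they fell, with 16 higher and 3 lower of 34 (median 0.92), and 5 higher and 2 lower without wild-type replicate 1 (median 0.19). The homophilic adhesion gene Con rose from 2.47 and 14.3 CPM to 24.5, 29.2 and 63.8 CPM (2.82, SE 0.39, adjusted p 0.000209), and side-III, an immunoglobulin gene of the sidestep group, fell from 164 and 468 CPM to 44.5, 52.96 and 73.6 CPM (-2.14, SE 0.24, adjusted p 4.13e-05).

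Haemolymph and immune genes rose in part. Of 10 tested genes of haemolymph and fat body 6 rose and 0 fell (0 lower at an unadjusted p under 0.05 in edgeR and 0 by DESeq2), with a median of 1.25, and the list summed to 1190 and 1702 CPM in the wild type, 2433 to 3074 CPM in the homozygotes and 1743 to 2169 CPM in the heterozygotes. Its storage proteins were low, with Hex110 at 3.53 and 1.30 CPM in the wild type and at most 20.3 CPM in the homozygotes (2.34, with 4.74 without wild-type replicate 1 and 1.55, not called, without replicate 2). Collagen IV, Col4a1, rose from 21.7 and 86.7 CPM to 531, 647 and 823 CPM (3.87, SE 0.57, adjusted p 0.000319), without overlap and with heterozygotes at 202 to 505 CPM. Of 19 immune genes 6 rose (31.6%, against 19.1% of all genes) and 0 fell, with a median of 0.17. At an unadjusted p under 0.05 in edgeR 3 were lower, and 0 by DESeq2. PPO, the phenoloxidase precursor of blood and cuticle melanization, rose from 375 and 412 CPM to 1091, 1324 and 1425 CPM (1.72, SE 0.22, adjusted p 0.000113), with heterozygotes between at 562 to 902 CPM, and the Toll family receptor Toll-6 from 5.58 and 11.5 CPM to a median of 27.7 CPM (1.99, SE 0.29, adjusted p 0.000286).

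Hormone genes moved in both directions. Of 18 genes of ecdysone and juvenile hormone 8 rose (44.4%, against 19.1% of all genes) and 3 fell (16.7%, against 25.8%), with a median of 0.62. The nuclear receptor Hr4 rose from 7.06 and 13.7 CPM to 31.0, 45.0 and 107 CPM (2.79, SE 0.25, adjusted p 6.38e-06) and the ecdysone synthesis gene nvd from 5.93 and 6.74 CPM to a median of 17.7 CPM (1.54, SE 0.18, adjusted p 6.80e-05), both without overlap. The early ecdysone response gene E75 fell from 424 and 553 CPM to 98.6, 150 and 316 CPM (-1.35, SE 0.23, adjusted p 0.000716), and was not called without wild-type replicate 1 (-1.07). Kr-h1, which responds to juvenile hormone in insects, had 81.1 and 255 CPM against 1.66, 22.5 and 58.4 CPM (-2.34, SE 0.85, adjusted p 0.0437) without overlap. Its call was lost without wild-type replicate 1 (-3.08) or 2 (-1.66), among other libraries. When wild-type replicate 1 was dropped, 4 haemolymph, 5 immune and 2 hormone genes rose and 0 of these lists fell.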

How the data were processed

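Antennal mRNA of adult ants was sequenced in 12 libraries, in 2 batches named by the labels. The authors aligned reads with STAR (2.6.1d per the labels' processing notes, which also list DESeq2 1.34.0) and deposited 1 table of read counts per gene and library. The unstranded column was used, since the share of reads on either strand was near 50% (50.0% to 50.6%), so overlapping and antisense genes cannot be told apart. Lines that name no gene (unmapped, multimapping, no feature, ambiguous) were left out of library sizes, and gene lines held 70.3% to 79.3% of all reads of a table. A deposited table of normalized counts was not used here.

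Genes with a mean of at least 10 counts (10740 of 14407) were fitted with edgeR 4.0.16 (R 4.3.3, limma 3.58.1) by the quasi-likelihood test on genotype plus batch over all 12 libraries, with TMM scaling. p-values were Benjamini-Hochberg adjusted over all genes tested, the threshold was 0.05, and the SE was the absolute log2 fold change over the square root of F. DESeq2 1.42.0 was an alternative, and others were another scaling, no filter, no batch term, batch 2 alone, a replicate block, no heterozygotes and leaving out each library. On simulated counts for this comparison over 10694 genes, 47.5% of 99 genes changed 2-fold and 86.6% of 97 changed 4-fold were called, and 1.50% of 133 calls were false. The simulated counts held few changed genes, no batch effect and no wild-type library set apart from the other. These rates therefore do not carry over to the calls made here. Tables and plots used Python 3.11.15, numpy 2.4.6, pandas 2.3.3, scipy 1.17.1 and matplotlib 3.10.9.

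Members and the 26 gene lists were chosen with earlier results of these data known. Lists were matched by RefSeq symbols (Hsal_v8.6), which matched 13545 of 13545 LOC numbers and gave a name to 4094. No coordinates or sequences are given. Genes were named by rule: orco, the 5 tuning Or genes highest in the wild type and the 5 least lowered at 5 CPM or more, Ir co-receptors and the 3 Ir and Gr genes most changed each way, 13 markers, the 12 most changed named genes each way among those at 20 CPM or more without overlap, the 6 with the largest gain and loss of CPM, and up to 3 calls each way per list by adjusted p-value. Not every such gene is described, and other list members were chosen after their values were seen. The floors (3 counts per library) cover counting error only, since reads carry no molecular identifiers. The SE comes from the quasi-likelihood fit and includes the spread between libraries.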

Additional observations from a re-analysis of the deposited data

Results flagged for a closer look

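In 17 of 73 sets of 7 homozygous libraries examined, the highest library stood away from the rest by more than Dixon's test allows. Its rate of about 1 in 20 holds for independent, normally distributed values. These sets are unlogged levels from the same 7 libraries, so that rate cannot be set against their number. Homozygote replicate 5 was that library for HsOrco (157 CPM, next 45.0 CPM), HsOr30 (0.571, next 0.218 CPM), HsOr208 (0.571, the others at 0 CPM), HsIr8a (115, next 78.4 CPM) and the transcription factor gene Fer1 (15.8, next 10.2 CPM). Homozygote replicate 1 was that library for the neuronal genes fne (569, next 290 CPM), Syt1 (326, next 211 CPM), onecut (47.3, next 24.0 CPM), the channel gene Shal (69.0, next 35.8 CPM) and the transporter Eaat2 (473, next 178 CPM). The same library was highest for HsIr309 (12.4, next 8.13 CPM), sv (50.1, next 27.6 CPM), bru3 (44.0, next 15.8 CPM) and meng (29.0, next 12.2 CPM). It was also highest for the cuticle and matrix genes Cpr97Ea (512, next 213 CPM) and conv (175, next 76.0 CPM). For HsOr228 this library was flagged as well (0.436, next 0.148 CPM). No homozygous library exceeded the count floor for that receptor, so its flag cannot be told from a difference in sequencing depth.

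The difference between homozygote and wild type itself differed between batches in 1370 genes (12.8% of those tested) by an interaction term in edgeR at an adjusted p under 0.05, among them meng and mAChR-A (adjusted p 0.00845 for each). mAChR-A did not pass with all libraries (0.42), and was called lower without homozygote replicate 1 (-0.82, adjusted p 0.0277). Each batch held 1 wild-type library and batch 1 held 1 homozygous library, so a batch effect on the genotype difference and a difference between the 2 wild-type libraries cannot be told apart.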

How the results depend on the processing

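The number of genes that differed was 4816 with all libraries, 2966 without the batch term, and 2008 to 5966 on leaving out 1 library, with the low end without wild-type replicate 1. Called genes of the lists numbered 284, and 186 without the batch term and 153 to 331 on leaving out 1 library. Leaving out 1 library gave 4 to 13 Ir genes, 1 to 3 Gr genes, 4 to 7 markers and 298 to 338 tuning Or genes, with the low ends of Ir (4), Gr (1) and tuning Or (298) without wild-type replicate 1. HsOrco ranged from -6.47 to -5.59, and DESeq2 gave it no adjusted p-value. The tuning Or share ranged from -4.77 to -4.30. It was -4.75 in batch 2 alone, where p cannot go below 0.143, and with 1 wild-type library left p cannot go below 0.125.

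The labels number the replicates in each genotype, but nothing in them says that a number marks a shared animal or day. With 2 wild-type libraries their deviations mirror each other, and same-numbered libraries lie in different batches, so the correlations of the deviations (-0.364 for replicates 1, 0.146 for replicates 2) cannot show a pairing. With a replicate block 3079 genes and 202 list genes differed, HsOrco was at -6.39 and 332 tuning Or genes fell.

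Among 160 named genes, 2989 of 3199 values kept their direction and side of the threshold, 179 lost a call and 23 gained one, and none of these 160 was called with the opposite sign. The sign turned, without a call, for HsOr61 (0.0289 in batch 2 alone, and -0.281 to 0.0049 on leaving out 1 library, the last without wild-type replicate 2) and HsIr8a (0.0464, and -0.205 to 0.0289, the last without the same library). It also turned without wild-type replicate 1 for fne (-0.65 to 0.0186 over all libraries left out), grh (-0.74 to 3.21), and ND-B14 (-1.62 to 0.19) and ND-13B (-1.06 to 0.0783), subunits of respiratory complex I. The cause was not tested. The interaction count of 1370 became 1721 with library totals and 1146 without a filter. With 2 wild-type libraries, of 14170829 and 4111828 counts, n limits the precision of every difference, and at the floor of 3 counts differences among the lowest Or genes were not detectable.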

Other observations

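HsOr207 was higher in the heterozygotes than in either other genotype. It had 0.494 and 0.435 CPM in the wild type and 13.1, 14.5 and 16.8 CPM in the 3 heterozygous libraries, and at most 0.297 CPM in the homozygotes. Heterozygote over wild type gave a log2 difference of 4.92 (SE 0.84, adjusted p 0.00322 in edgeR) and homozygote over wild type -2.18 (adjusted p 0.0902). This receptor was chosen after its values were seen.

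Light-sensing genes were measured in the antenna at low levels. Of 10 tested 3 fell and 0 rose (1 higher at an unadjusted p under 0.05 in edgeR and 1 by DESeq2), with a median of -0.06. The ultraviolet opsin Uvop had 28.9 and 29.1 CPM in the wild type against 11.3, 14.0 and 22.2 CPM in the homozygotes and 14.5 to 17.0 CPM in the heterozygotes (-0.92, SE 0.17, adjusted p 0.00152), and lost its call without wild-type replicate 1 (-0.62). The long-wavelength opsin Lop2 fell by 0.85 (adjusted p 0.00436), and ninaB, which cleaves carotenoids to retinal in flies, by 2.03 (adjusted p 0.000207; without wild-type replicate 1 -1.17, not called).

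Of 21 cell cycle genes 2 fell and 0 rose (1 at an unadjusted p under 0.05 in edgeR and 1 by DESeq2), with a median of 0.02. Mcm10, a replication factor, had 13.2 and 18.0 CPM against 3.61, 4.36 and 5.59 CPM (-1.65, SE 0.23, adjusted p 0.000200), and the kinetochore gene Ndc80 fell by 0.51, a call lost without wild-type replicate 1 (-0.20). Of 18 genes of fatty acid and hydrocarbon synthesis 2 rose and 2 fell, with a median of 0.17, and without wild-type replicate 1 none passed. The elongase bond had 13.5 and 33.5 CPM against 73.1, 156 and 227 CPM (2.95, SE 0.55, adjusted p 0.00144; without that library 2.24, adjusted p 0.0504).

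Of 30 proteasome genes 3 fell and 0 rose (0 at an unadjusted p under 0.05 in edgeR and 0 by DESeq2), with a median of -0.22. Prosbeta3, Prosalpha7 and Prosalpha5 fell by 0.68, 0.55 and 0.54, and the calls were lost without wild-type replicate 1. Of 7 tested mitochondrial genome genes mt:ND3 fell (135 and 23.3 CPM against 15.9, 42.1 and 44.1 CPM, -1.34, SE 0.23), also lost without that library (-0.43). Of 2 tested Osiris genes, which act in cuticle formation in flies, Osi2 fell from 8.05 and 2.17 CPM to a median of 1.74 CPM (-1.76, SE 0.41, adjusted p 0.00558; without wild-type replicate 1 -0.38, not called), with heterozygotes at 0.263 to 1.11 CPM. Among respiratory chain genes ATPsynbeta, of the ATP synthase, rose from 574 and 366 CPM to a median of 1113 CPM (1.08, SE 0.21, adjusted p 0.00184).

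Beside Gad1, other neuronal genes were called higher with homozygote replicate 1 far above the other homozygotes. VGlut, the vesicular glutamate transporter, had 30.1 CPM in that library and a median of 1.99 CPM (wild type 1.06 and 3.04 CPM). Its value of 1.71 (adjusted p 0.0451) was 0.77 without homozygote replicate 1 and 0.94 without wild-type replicate 2, and was called in neither. The sodium leak accessory unc80 had 50.7 CPM in that library and a median of 2.43 CPM (wild type 1.06 and 4.13 CPM), with a log2 difference of 2.21, with 1.39 without homozygote replicate 1 and 1.46, not called, without wild-type replicate 2.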
